A study of Homo sapiens with 6 samples.

Results

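The genes described here encode the serpins, the tissue inhibitors of metalloproteinases (TIMPs) and 10 other inhibitors of proteases in T98G cells, an established human glioblastoma (GBM) line. Members were taken by symbol: every symbol that starts with SERPIN, a clade letter from A to I and a number, TIMP1 to TIMP4, and A2M, SLPI, PI3, TFPI, TFPI2, SPINT1, SPINT2, CST3, CSTB and RECK. This gave 49 of the 57133 symbols in the count table. RNA-seq was performed in 6 libraries, all from the T98G CBX8 knockout line made by CRISPR with a guide against CBX8. In 3 libraries (CBX8 KO) the cells carried the empty doxycycline-inducible TetO-FUW vector, and in the other 3 (WT CBX8 re-expression) the same vector with full-length CBX8 behind an N-terminal V5 epitope. Both lines also carried the rtTA activator, had been selected with puromycin and hygromycin, and were labelled as treated with doxycycline at 1 μg/ml for 72 h. The comparison was thus between the knockout and added-back CBX8. The sources do not say whether each line was a clone or a pool, or whether replicates were separate cultures, so p-values measured the spread between libraries, which may be technical. The genotype field gives the re-expression libraries as wild type. Their titles and the study's methods describe CBX8 added back to the knockout, which was followed here.

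Proteases in and around the cell are held in check by inhibitors of several unrelated folds. Serpins are suicide substrates: the protease cleaves an exposed loop and is then trapped in a covalent complex, although some serpins have lost this activity and act as chaperones or hormone carriers. TIMPs bind the active site of matrix metalloproteinases, Kunitz and WAP domain proteins block serine proteases, cystatins block lysosomal cysteine proteases, and α2-macroglobulin cages proteases of every class. In gliomas the plasminogen activator system and the matrix metalloproteinases are studied for their part in the digestion of matrix at the invading edge. CBX8 is a chromobox subunit of Polycomb repressive complex 1 (PRC1), which acts on chromatin to keep genes silent.

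Total counts per library lay between 7950190 and 8659796. CBX8 itself gave 96, 104 and 83 counts without added CBX8, and 30372, 31408 and 27791 counts with it. The log2 fold change was 8.22 (SE 0.081, edgeR adjusted p = 1.0e-30), so the added CBX8 was seen in the libraries labelled with it. No library of intact T98G cells was analysed here, so the counts do not check the knockout itself. Of 10 glial and glioma markers, VIM (21563 to 24449 counts) and CD44 (20126 to 24273) were abundant, SOX9 had 625 to 772 counts, and GFAP, the defining astrocyte filament, had 13 to 30. S100B, SOX2 and AQP4 were at 0 in every library and NES, the gene of the neural progenitor filament nestin, had at most 4 counts. Markers of leukocytes, epithelium, endothelium, neurons, liver and muscle had at most 4 counts in any library. Of the 6 glial markers tested, SOX9 (log2 fold change -0.27), CD44 (-0.21) and SLC1A3 (-0.45) were called lower upon re-expression and none was called higher. For GFAP (0.68), OLIG2 (0.85) and VIM (0.047), every re-expression library lay above every CBX8 KO library after normalisation. These did not reach an edgeR adjusted p below 0.05 (0.13, 0.056 and 0.61). Every called marker thus fell, and the opposite direction of GFAP, OLIG2 and VIM rests on changes that did not pass this threshold. By comparison, 6.63% of all genes tested were called lower upon re-expression. The part of these marker changes in the results below was not tested.

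Upon WT CBX8 re-expression, 4 protease inhibitor genes fell and 2 rose. A2M, SLPI and TFPI2 had 2.53, 2.00 and 1.99 times as many normalised reads in the CBX8 KO cells as upon re-expression, and SERPINE2 had 1.23 times as many. CSTB and SERPINH1 were higher upon re-expression, by 1.19- and 1.18-fold. The remaining 14 of the 20 genes that could be tested did not pass the threshold, among them all 4 TIMPs. A gene was called where the false discovery rate of edgeR's quasi-likelihood test (Benjamini-Hochberg over the 14461 genes tested) was below 0.05, and log2 fold changes are re-expression minus CBX8 KO. In a bulk RNA sample, fewer cells that express a gene cannot be told apart from less RNA of it per cell.

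Of the 49 genes, 15 had no count in any library, 14 had counts but too few to pass the low-count filter, and 20 were tested. The filter kept genes by their level in either group, so these 20 are not a sample of all 49. The 6 called genes were 30.0% of the tested ones. Across all genes tested, 12.9% were called in either direction, with 6.63% lower and 6.23% higher upon re-expression. The set was chosen with earlier results of these data known, and A2M and SLPI were included by name. The study had picked both for qRT-PCR from these libraries, so the 30.0% is not independent evidence. The groups did not overlap in normalised reads for 9 of the 20 genes, 5 lower and 4 higher, against 28.9% of all genes tested. The median log2 fold change of the 20 genes was -0.017, beside 0.0049 over all genes tested. DESeq2 and limma voom also called 4 of the 20 lower and 2 higher. The plot of log2 fold changes by role places the 3 large decreases in 3 different inhibitor classes.

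**Figure D1:**
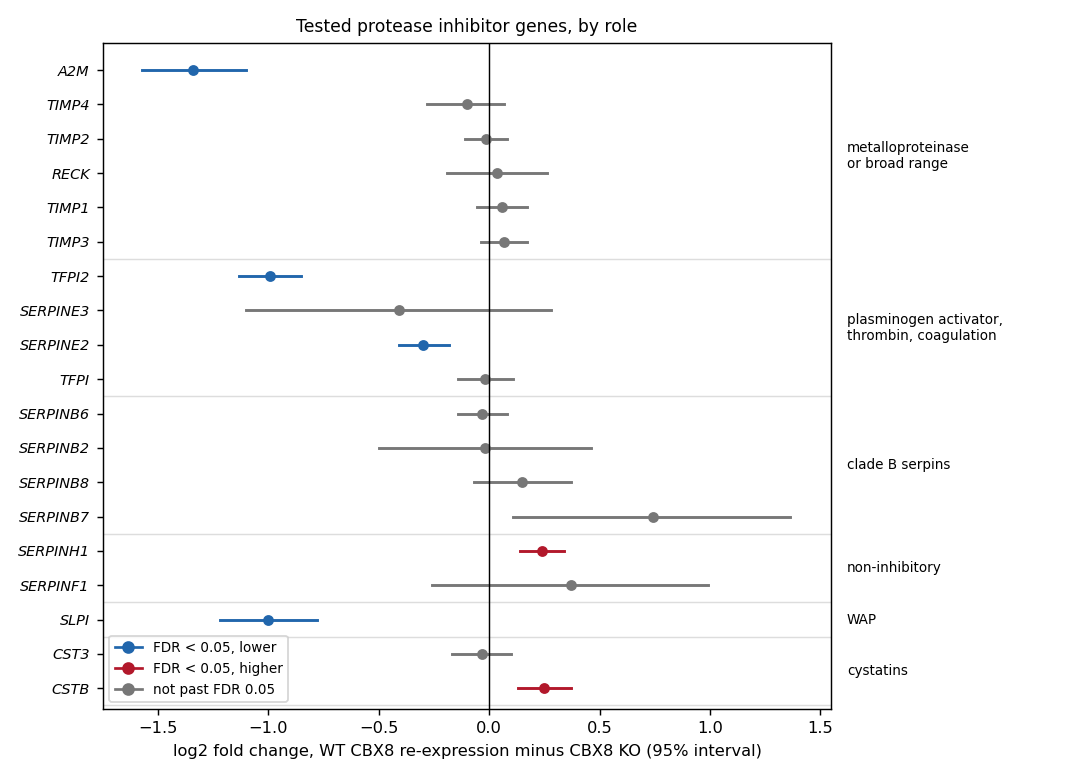
Log2 fold changes (WT CBX8 re-expression minus CBX8 KO, x axis) of 19 of the 20 tested protease inhibitor genes, grouped by role. Points are edgeR estimates from 3 libraries per condition and bars are 95% intervals. A2M at -1.34, SLPI at -1.0 and TFPI2 at -0.99 lie apart from the other genes drawn, which lie between -0.41 and 0.74.

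A2M encodes α2-macroglobulin, a secreted bait protein that cages proteases and is then cleared by the receptor LRP1. It had 250, 244 and 211 counts in CBX8 KO and 97, 86 and 113 upon re-expression. Every re-expression library was below every CBX8 KO library. The mean fell from 29.2 ± 2.28 to 11.6 ± 1.82 CPM (counts scaled to library size, SD, n = 3 libraries per condition here and below). The log2 fold change was -1.34 (SE 0.11, 95% interval -1.57 to -1.10, edgeR adjusted p = 3.8e-09). The gene lies on the minus strand of chr12:9067664-9116229 (hg38), and A2M-AS1 on the opposite strand shares 561 of its exon bases. A2M-AS1 itself had 3 to 10 counts, and the strand setting of the counting is not given in the sources used here. A2M and SLPI are among the genes for which the study ran qRT-PCR after choosing them from these libraries, so their direction here is not independent evidence.

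The other 5 genes of this role group, which act on metalloproteinases, did not pass the threshold. TIMP3, the TIMP that stays bound to the matrix, had 7290, 7145 and 6915 counts in CBX8 KO and 7557, 8072 and 8136 upon re-expression. TIMP2, which inhibits MMP2 and also takes part in its activation with MMP14, had 3491, 3936 and 3518 counts in CBX8 KO and 3877, 3854 and 3758 upon re-expression. For TIMP1, a broad inhibitor of secreted metalloproteinases, the counts were 903, 963 and 943 in CBX8 KO and 974, 1113 and 1022 upon re-expression. After normalisation the groups overlapped for all 3 genes. Their log2 fold changes were 0.066 (95% interval -0.037 to 0.17), -0.016 (-0.11 to 0.081) and 0.058 (-0.054 to 0.17), with edgeR adjusted p of 0.45, 0.88 and 0.56. The sign of TIMP2 turned under other settings.

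TIMP4, the TIMP with the most restricted tissue expression, had 275, 296 and 283 counts in CBX8 KO and 274, 300 and 270 upon re-expression. Its normalised reads were lower in every re-expression library, at 35.4 ± 0.774 against 32.9 ± 1.21 CPM. The log2 fold change was -0.10 (95% interval -0.28 to 0.066, edgeR adjusted p = 0.47), so the separation did not reach the threshold. RECK, a membrane-anchored inhibitor of metalloproteinases, had 112 to 142 counts and a log2 fold change of 0.035 (95% interval -0.19 to 0.26, edgeR adjusted p = 0.89). TIMP1, TIMP3 and TIMP4 each lie inside a synapsin gene on the opposite strand. SYN1 around TIMP1 had 2 to 9 counts and SYN3 around TIMP3 had 0 to 3. SYN2 around TIMP4, which shares 170 exon bases with it, had 40 to 51 counts and a log2 fold change of -0.097 (edgeR adjusted p = 0.80).

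The inhibitors of plasminogen activation, thrombin and coagulation gave 2 decreases and no increase that passed the threshold. Of 13 genes in this group 5 were tested, 3 had no count and 5 had too few. TFPI2, a secreted Kunitz inhibitor that binds the matrix and blocks plasmin, had 615, 672 and 600 counts in CBX8 KO and 318, 338 and 353 upon re-expression. The groups stood far apart, with the lowest CBX8 KO library above the highest re-expression library by more than the range within either group. The mean fell from 78.1 ± 1.58 to 39.3 ± 2.41 CPM, a log2 fold change of -0.99 (SE 0.066, 95% interval -1.13 to -0.85, edgeR adjusted p = 3.2e-11). This was the smallest p among the inhibitor genes.

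TFPI2 (minus strand, chr7:93885396-93890753, hg38) lies within GNGT1, which is transcribed from the opposite strand and shares 44 of its exon bases. GNGT1, a G protein γ subunit known from photoreceptors, had 83, 91 and 78 counts in CBX8 KO and 50, 56 and 47 upon re-expression. It also fell, from 10.4 ± 0.417 to 5.96 ± 0.407 CPM, with a log2 fold change of -0.81 (SE 0.15, edgeR adjusted p = 0.00037). Without the strand setting, reads of the shared bases cannot be told apart. GNG11, another G protein γ subunit whose start lies 31.0 kb upstream of that of TFPI2, fell too (log2 fold change -0.34, SE 0.062, edgeR adjusted p = 0.00035). BET1, the remaining tested gene that starts within 500 kb, had a log2 fold change of -0.067 (edgeR adjusted p = 0.61).

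SERPINE2 encodes protease nexin-1, a cell-surface serpin that inhibits thrombin, urokinase and plasmin and is well known from glia. Its counts were 719, 829 and 777 in CBX8 KO and 661, 681 and 669 upon re-expression. After normalisation each re-expression library was below each CBX8 KO library, and the re-expression libraries were the more tightly grouped. The mean fell from 96.2 ± 4.77 to 78.4 ± 1.10 CPM, a log2 fold change of -0.30 (SE 0.057, 95% interval -0.41 to -0.18, edgeR adjusted p = 0.00065). SERPINE2 thus fell by less than TFPI2, and the 95% intervals of both changes did not overlap. The gene lies on the minus strand of chr2:223975045-224039318. Of 4 tested genes that start within 500 kb, WDFY1 was higher (log2 fold change 0.18, edgeR adjusted p = 0.016) and none was lower.

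TFPI, the Kunitz inhibitor of tissue factor and factor Xa, had 867, 898 and 808 counts in CBX8 KO and 820, 907 and 970 upon re-expression. The groups overlapped, with a log2 fold change of -0.019 (95% interval -0.14 to 0.11, edgeR adjusted p = 0.89). The interval of TFPI thus lay wholly above that of TFPI2. SERPINE3, a little studied member of the clade, had 9 to 17 counts and just passed the filter. Its log2 fold change was -0.41 (95% interval -1.10 to 0.28, edgeR adjusted p = 0.49), and it shares 789 exon bases with INTS6 on the opposite strand, which had 377 to 448 counts.

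**Figure D2:**
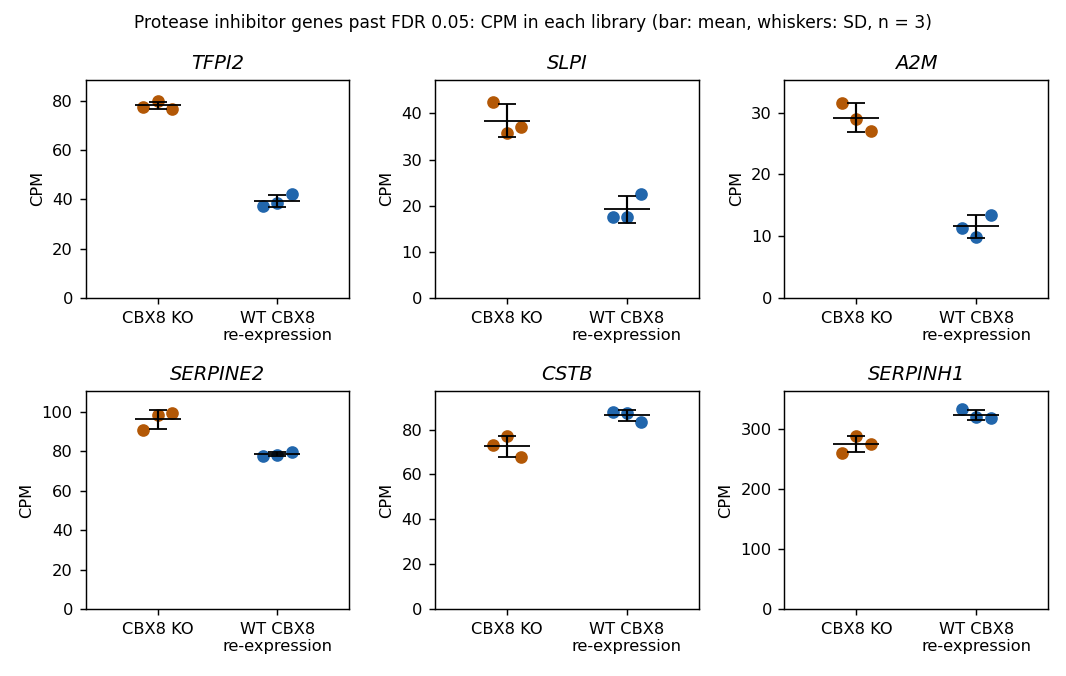
CPM (y axis, from 0) of the 6 called protease inhibitor genes in each of the 3 CBX8 KO and 3 WT CBX8 re-expression libraries. Points are libraries, bars are means and whiskers are SD. The conditions do not overlap in any panel; TFPI2 goes from 78.1 to 39.3 CPM, and SERPINH1 from 275 to 324.

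SLPI, the secretory leukocyte protease inhibitor, is a small WAP domain protein that blocks neutrophil elastase and cathepsin G. It had 337, 301 and 289 counts in CBX8 KO and 149, 153 and 190 upon re-expression. The highest re-expression library was still well below the lowest CBX8 KO library. The mean fell from 38.4 ± 3.61 to 19.2 ± 2.96 CPM, a log2 fold change of -1.0 (SE 0.11, 95% interval -1.22 to -0.78, edgeR adjusted p = 1.3e-07). The genes of the enzymes it blocks, ELANE and CTSG, had at most 1 count and 0 counts in any library. The other WAP domain gene of the set, PI3 (elafin), had 1 to 4 counts in every library. SLPI lies on the minus strand of chr20:45252239-45254564. Of 9 tested genes that start within 500 kb, TOMM34 was lower (log2 fold change -0.33) and STK4 (0.22) and PABPC1L (0.24) were higher.

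Of the cystatins, CSTB rose and CST3 did not pass the threshold. CSTB encodes cystatin B, an inhibitor of cathepsins inside the cell whose loss causes a progressive myoclonus epilepsy. It had 579, 647 and 529 counts in CBX8 KO and 749, 766 and 700 upon re-expression, with every re-expression library higher. The mean rose from 72.6 ± 4.61 to 86.3 ± 2.57 CPM, a log2 fold change of 0.25 (SE 0.060, 95% interval 0.13 to 0.37, edgeR adjusted p = 0.0054). CST3, the secreted cystatin C, had 678, 745 and 806 counts in CBX8 KO and 798, 733 and 786 upon re-expression. Its groups overlapped, with means of 92.4 ± 9.42 and 90.4 ± 5.74 CPM. The log2 fold change was -0.032 (95% interval -0.17 to 0.10, edgeR adjusted p = 0.82), and the intervals of the cystatins did not overlap each other. CSTB lies on the minus strand of chr21:43772511-43776330, and of 8 tested genes that start within 500 kb 1 was lower (RRP1B, log2 fold change -0.18) and 1 higher (PDXK, 0.21).

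SERPINH1 encodes HSP47, a collagen chaperone of the endoplasmic reticulum that has the serpin fold without the inhibitory activity. It had 2070, 2420 and 2155 counts in CBX8 KO and 2837, 2805 and 2678 upon re-expression. No CBX8 KO library reached the lowest re-expression library. The mean rose from 275 ± 13.2 to 324 ± 8.02 CPM, a log2 fold change of 0.24 (SE 0.049, 95% interval 0.14 to 0.34, edgeR adjusted p = 0.0014). A copy on chromosome 9 matched 91.4% of the bases of its transcript, and the pseudogene SERPINH1P1 had 0 to 2 counts. SERPINH1 (plus strand, chr11:75562056-75572783) had 7 tested genes that start within 500 kb, of which 3 were higher (GDPD5, log2 fold change 1.05, DGAT2, 0.71, and ARRB1, 0.48) and 1 lower (SLCO2B1, -1.23). SERPINF1, the gene of the antiangiogenic protein PEDF and the other tested gene without inhibitory activity, had 11 to 30 counts and a log2 fold change of 0.37 (95% interval -0.26 to 0.99, edgeR adjusted p = 0.49). The hormone carriers SERPINA6 and SERPINA7 had no count.

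**Figure D3:**
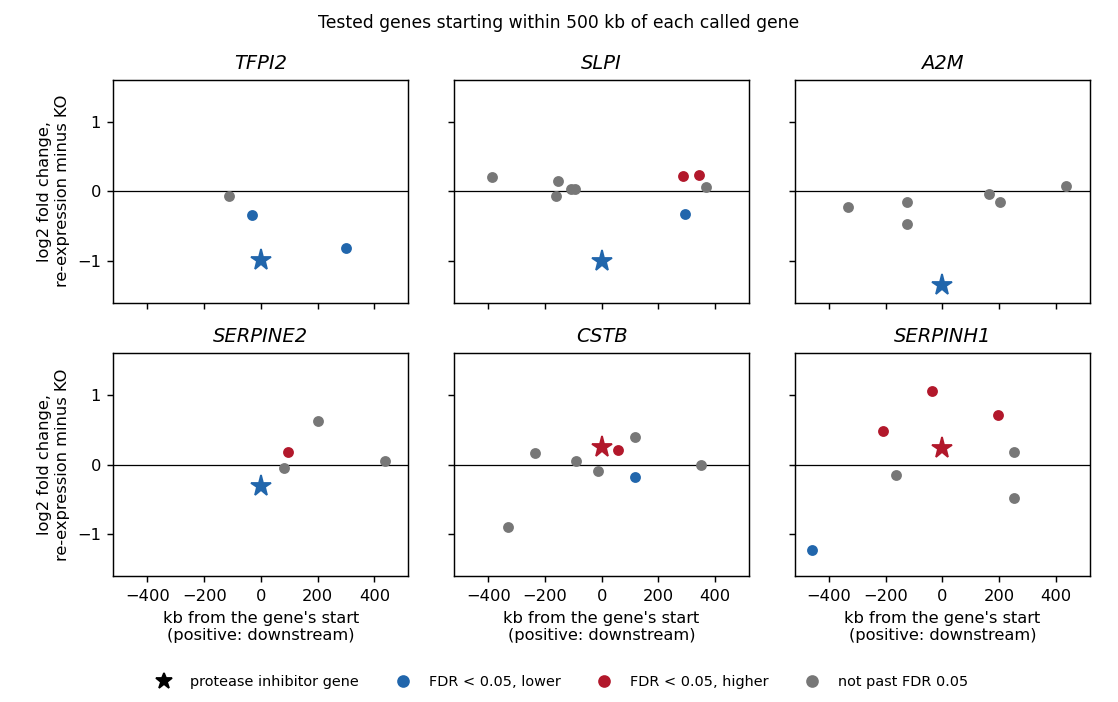
Log2 fold changes (y axis, re-expression minus CBX8 KO) of the tested genes that start within 500 kb of each of the 6 called inhibitor genes, against the distance of their start in kb along the direction of transcription (x axis). Stars are the inhibitor genes and colours mark calls. Around A2M 0 of 6 neighbours were called. Around TFPI2 2 of 3 were lower, among them GNGT1, within which TFPI2 lies. Over all genes tested, 12.9% were called and 6.63% were called lower.

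The clade B serpins, most of which act inside the cell, gave no call. Of the 13 genes 4 were tested, 5 had no count and 4 had too few. SERPINB6, which inhibits cathepsin G and other serine proteases, was the main one at 777 to 896 counts, with a log2 fold change of -0.030 (95% interval -0.14 to 0.081, edgeR adjusted p = 0.79). SERPINB8, with 157 to 242 counts, and SERPINB2, a serpin that inhibits urokinase, with 27 to 44 counts, had log2 fold changes of 0.15 and -0.018 (edgeR adjusted p of 0.42 and 0.97). SERPINB7 had 10, 12 and 14 counts in CBX8 KO and 24, 19 and 21 upon re-expression. Its groups did not overlap, and the log2 fold change of 0.74 (SE 0.30, 95% interval 0.11 to 1.36, edgeR adjusted p = 0.12) did not pass the threshold. At an unadjusted p below 0.05, 1 of the 4 genes would be taken as higher and 0 as lower, and DESeq2 and limma voom called 0.

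None of the 7 secreted clade A serpins was tested, and 5 of them had no count. SERPINA1, the gene of α1-antitrypsin, had 1, 1 and 0 counts in CBX8 KO and 0, 10 and 5 upon re-expression, too few for the filter. SERPINI1, which encodes the neuronal serpin neuroserpin, came closer to it at 4, 9 and 1 counts in CBX8 KO and 7, 10 and 3 upon re-expression. SPINT1 and SPINT2, the membrane Kunitz inhibitors of hepatocyte growth factor activator and matriptase, had at most 1 count in any library. In all, 29 of the 49 genes had at most 10 counts in each library, which limits what could be detected at this depth. The antithrombin gene SERPINC1 and the heparin cofactor gene SERPIND1 were among those with at most 1 count.

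Per length of transcript, TIMP1 to TIMP3, SERPINH1 and both cystatins had the highest levels, and the other metalloproteinase inhibitors were lower. TIMP3 had the highest level, 197 CPM per kilobase of canonical transcript over the 6 libraries, and its range (185 to 211) did not overlap with that of the next gene. TIMP1 (154), SERPINH1 (146), CSTB (135), TIMP2 (123) and CST3 (115) followed, and neighbours among these 5 overlapped in range. SERPINB6 at 77.3 lay apart from the genes on either side. SLPI (48.3) and SERPINE2 (39.2) overlapped, as did TIMP4 (28.6) and TFPI (27.4). TFPI2 averaged 26.6, between its separate levels in the conditions, so its pooled range (16.9 to 36.2) spans those of TIMP4 and TFPI (25.0 to 29.9). All other tested genes were at 7.25 or less, A2M at 4.42 among them.

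TFPI2 changed its place in this order. Its level was 35.4 ± 0.715 CPM per kilobase in CBX8 KO, above the 27.6 ± 0.781 of TFPI, and 17.8 ± 1.09 upon re-expression, below the 27.3 ± 2.50 of TFPI. The level of SLPI went from 64.5 ± 6.05 to 32.2 ± 4.96 CPM per kilobase, with SERPINE2 at 43.2 ± 2.14 and 35.2 ± 0.493. Upon re-expression the mean of SERPINE2 lay within the SD of SLPI. The inhibitor genes together took 0.236% to 0.252% of all counts in a library, and the 4 TIMPs took 60.4% to 63.0% of that share. Summed over the inhibitor genes, the level was 2430 CPM without and 2440 CPM with added CBX8.

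**Figure D4:**
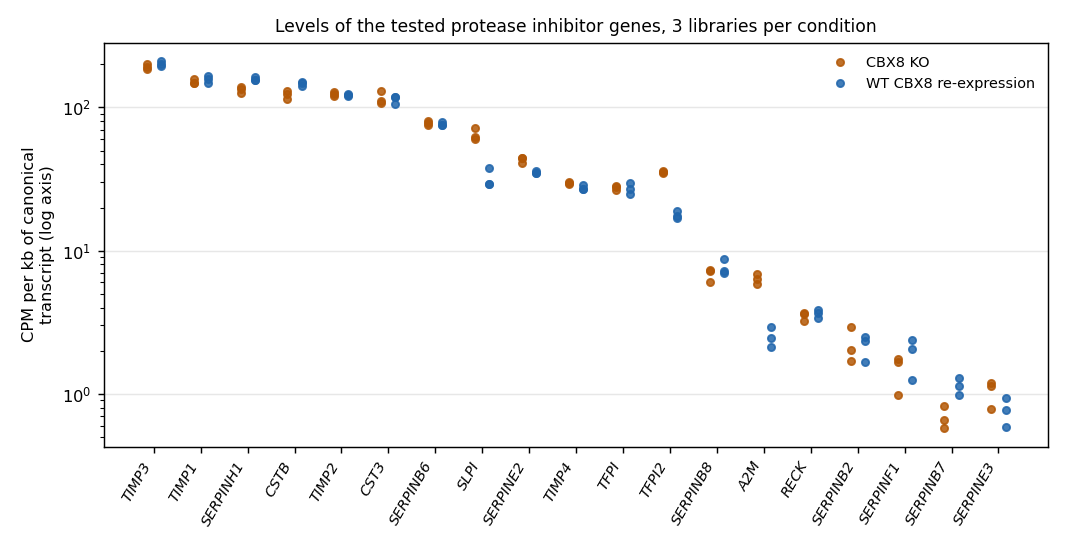
Levels of 19 of the 20 tested protease inhibitor genes in CPM per kilobase of canonical transcript (y axis, log scale), ordered by their mean. Each point is 1 library, with 3 CBX8 KO libraries on the left and 3 WT CBX8 re-expression libraries on the right of each position. The mean levels run from 0.901 for SERPINE3 to 197 for TIMP3.

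Promoter sequences are shown for TFPI2, which fell, and SERPINH1, which rose, from RefSeq's table (GRCh38.p14). Each line gives the 250 bases before the start of the canonical transcript, on the strand of the gene, 5′ to 3′. The gene body of SERPINH1 given above begins earlier because another of its transcripts does. Capitals mark CpG dinucleotides in TFPI2 (chr7:93890754-93891003) and SERPINH1 (chr11:75562003-75562252).
TFPI2: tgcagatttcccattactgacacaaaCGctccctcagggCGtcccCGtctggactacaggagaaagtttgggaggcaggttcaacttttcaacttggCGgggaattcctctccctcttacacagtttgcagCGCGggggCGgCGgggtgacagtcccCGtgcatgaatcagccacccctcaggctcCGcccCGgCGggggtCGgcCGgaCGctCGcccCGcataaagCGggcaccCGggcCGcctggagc
SERPINH1: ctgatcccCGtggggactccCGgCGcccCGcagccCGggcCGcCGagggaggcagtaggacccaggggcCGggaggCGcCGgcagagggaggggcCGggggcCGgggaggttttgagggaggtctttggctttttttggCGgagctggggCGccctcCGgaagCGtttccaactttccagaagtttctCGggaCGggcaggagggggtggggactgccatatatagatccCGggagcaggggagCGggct

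Counted over 300 bases, 250 before and 50 after the start, the TFPI2 promoter had 26 CpG dinucleotides, the same as the median of 26 over 9725 promoters of tested genes. SERPINH1 had 28.

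The letters TGANTCA, a loose pattern for the site of AP-1 factors in which N is any base, were searched on both strands. They occurred once in TFPI2, at position -87, as TGAATCA, with A at N and not the C or G of the usual site. TGANTCA was also found in SERPINB2, SERPINB8 and SERPINE3, which were not called, and in 4.62% of the promoters of tested genes. GAANNTTC, an inverted pair of the units bound by heat shock factors, occurred once in SERPINH1, at -71. It was also found in SERPINB7, which was not called, and in 4.60% of those promoters. TATAAA, held by 5.21% of them, was absent from the window of both genes. These matches describe the sequence, and binding of CBX8 or of these factors at the promoters was not measured here. Inhibitor genes with an entry were counted at the starts the table gives, which need not be those of the canonical transcripts. The median number of CpG was 12 for the 11 tested genes that were not called and 3 for the 11 genes with no count. Of the other called genes, SERPINE2 had 8 at such a start, and A2M, SLPI and CSTB had no entry.

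Many genes changed upon re-expression in a list of proteases, their receptors and clearance receptors, not all of which these inhibitors block. Of 54 such genes, 33 were tested, 13 were higher and 5 lower upon re-expression, and 15 did not pass the threshold. That was 54.5% of the tested genes, beside 12.9% of all genes tested, and their median log2 fold change was 0.16. The list was chosen with earlier results of these data known, so this share is not independent evidence. With DESeq2 the calls were 7 higher and 4 lower.

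PLAU, PLAT and PLAUR, which encode the plasminogen activators and the urokinase receptor, rose upon re-expression. PLAU, which encodes urokinase, an enzyme inhibited by SERPINE2, had 735, 861 and 781 counts in CBX8 KO and 1298, 1382 and 1327 upon re-expression. The groups stood far apart, and the mean rose from 98.3 ± 4.97 to 156 ± 3.10 CPM (log2 fold change 0.67, SE 0.053, edgeR adjusted p = 1.3e-09). PLAT (tissue plasminogen activator) rose with a log2 fold change of 1.03 from a low level, 2.52 ± 0.438 to 5.18 ± 0.365 CPM (edgeR adjusted p = 0.0022). The urokinase receptor gene PLAUR rose by 0.29 on the log2 scale (edgeR adjusted p = 0.045) and LRP1, which clears serpin complexes and α2-macroglobulin from the surface, by 0.69 (edgeR adjusted p = 3.9e-07). F3, the tissue factor gene, and F2RL1, a receptor cleaved by trypsin-like proteases, rose by 0.28 and 0.26 on the log2 scale, whereas the thrombin receptor gene F2R had a log2 fold change of -0.27.

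Among the metalloproteinases, MMP2, the gelatinase that TIMP2 binds, fell from 973 ± 25.1 to 647 ± 7.06 CPM (log2 fold change -0.59, SE 0.047, edgeR adjusted p = 1.3e-09). MMP19 (log2 fold change 0.72), MMP3 (0.49) and MMP16 (0.36) rose. MMP14, which activates MMP2, had a log2 fold change of -0.045 (95% interval -0.17 to 0.078). The cysteine cathepsins, the targets of the cystatins, were called in both directions. CTSC (-0.57, edgeR adjusted p = 9.5e-06) fell, and CTSB (-0.16) and CTSS (-0.45) passed the threshold with edgeR adjusted p of 0.023 and 0.049. The number of target proteases and receptors called lower was 3 instead of 5 with the replicate block, with library size scaling, at FDR < 0.01, and without CBX8 KO replicate 2 or WT CBX8 re-expression replicate 1 or 2. The number called higher was 7 instead of 13 without WT CBX8 re-expression replicate 2. CTSF (0.51), CTSH (0.49), CTSZ (0.24) and the legumain gene LGMN (0.49) rose. CTSF, like A2M and SLPI, is a gene for which the study lists qRT-PCR primers. The study drew its qRT-PCR genes from those it found repressed upon re-expression, whereas CTSF was higher here (edgeR adjusted p = 0.0096). The cause of this difference was not tested.

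**Figure D5:**
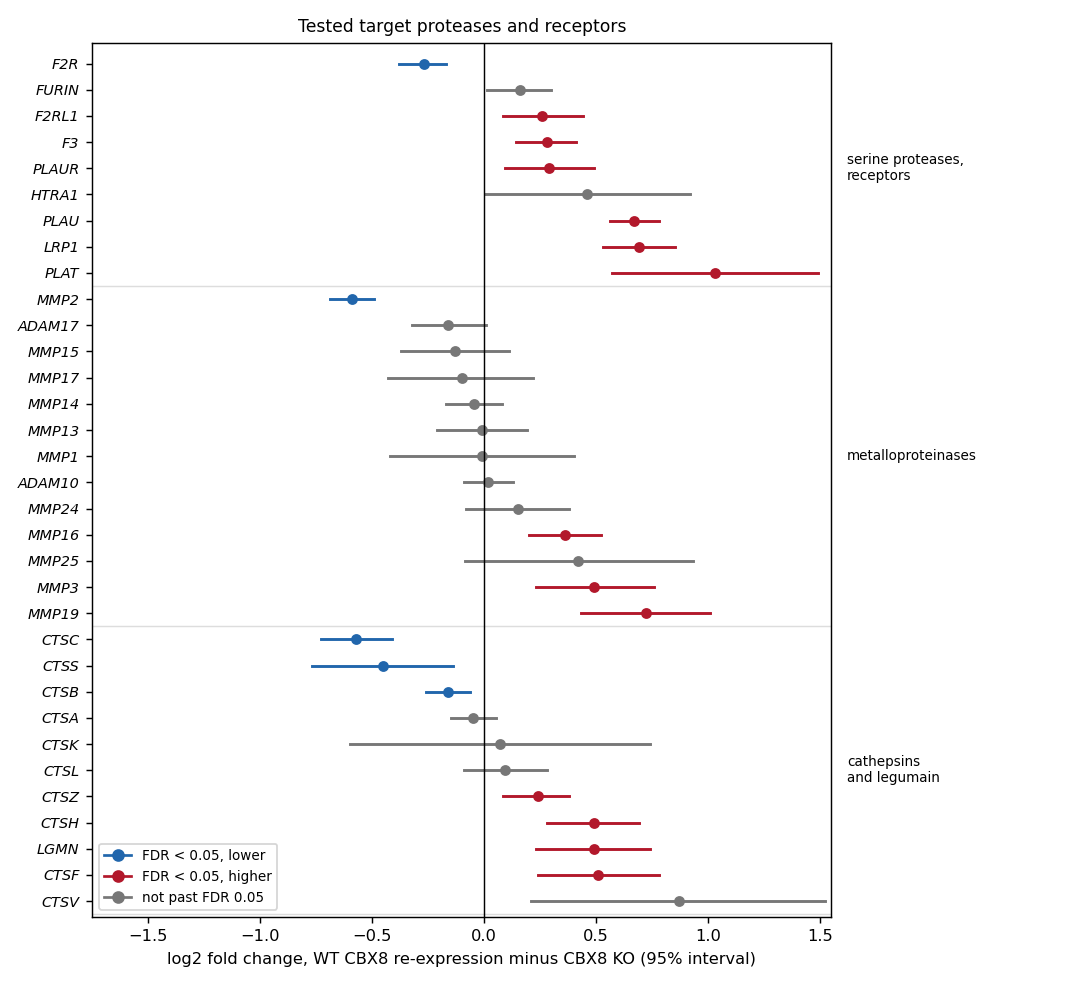
Log2 fold changes (re-expression minus CBX8 KO, x axis) with 95% intervals of the 33 tested genes of target proteases and receptors, from 3 libraries per condition. Colours mark calls. Of the called genes 13 lie right of 0, PLAT farthest at 1.03, and 5 lie left, MMP2 farthest at -0.59.

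Of 45 other genes of protease inhibitors or proteins with an inhibitor domain, outside the symbols above, 8 were tested and 1 was called. That was 12.5% of the tested ones, beside 12.9% of all genes tested. SPOCK1, whose product testican-1 carries inhibitor domains, rose from 78.8 ± 2.34 to 115 ± 6.68 CPM (log2 fold change 0.55, SE 0.058, edgeR adjusted p = 1.0e-07). None of the 8 was called lower by edgeR, DESeq2 or limma voom, with 1 lower at an unadjusted p below 0.05. CAST, the calpain inhibitor, and CD109, a relative of A2M, had log2 fold changes of -0.093 and -0.082 (edgeR adjusted p of 0.23 and 0.38). The interval of CD109 (-0.19 to 0.031) lay wholly above that of A2M.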

How the data were processed

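RNA-seq of 6 libraries of the T98G line was analysed, with conditions taken from sample titles. Per the methods and the submitters' processing notes, adapters of 100 bp paired-end poly(A) reads had been removed by Trimmomatic, and HISAT2 had placed the reads on hg38. The values deposited by the authors were raw, unnormalized counts for each gene symbol. The counting program, annotation and strand setting are not given in the sources used here, so reads of overlapping or near-identical genes may have been assigned in more than 1 way.

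The low-count filter was filterByExpr with default settings (edgeR 4.0.16, R 4.3.3). It kept 14461 of 57133 genes, and 29123 had no count. After TMM scaling, conditions were compared by glmQLFit and glmQLFTest (two-sided), with Benjamini-Hochberg adjustment over all genes tested and FDR < 0.05 as threshold. CPM uses TMM-adjusted library sizes. Each SE was obtained from the log2 fold change and the F statistic. The pipeline was tested on simulated counts. The biological coefficient of variation was 4.70%. Since reads had no molecular identifiers, the stated depth speaks to counting error alone.

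Symbols were placed on GENCODE release 44, whose canonical transcripts gave lengths. Near-identical copies (at least 90% of bases) were sought with minimap2 2.31. Promoters came from RefSeq, with an entry for 35 of the 49 genes. The members and lists were chosen with earlier results of these data known. Genes named with full values were CBX8, the called members, the 10 with the highest CPM per kilobase, A2M and SLPI, and those next to the filter. Of the other tested members, TFPI, RECK, SERPINF1, SERPINB8 and SERPINB2 were given values after these were seen, and the result of 1 member is not reported here. Alternatives were 3 scalings, 2 filters, another quasi-likelihood method, DESeq2 1.42.0, limma 3.58.1 voom, 2 thresholds, the replicate number as a term, and fits with 1 library omitted.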

Additional observations from a re-analysis of the deposited data

How the results depend on the processing

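The members were called the same way under most settings. With 4 called lower and 2 higher, the counts were the same under all other scalings, filters, tools, the replicate block (4 lower, 2 higher) and FDR < 0.01. They ranged from 4 to 4 lower and from 2 to 2 higher when each library was left out in turn. Requiring a change of at least 1.5-fold left 3 lower (without SERPINE2) and 0 higher, by the construction of that threshold. Over all settings the log2 fold change lay between -1.46 and -1.23 for A2M, -1.14 and -0.92 for SLPI, and -1.04 and -0.93 for TFPI2. CBX8 lay between 8.15 and 8.27. Signs were followed over the settings for 12 of the inhibitor genes. Among these, they turned only for genes that were not called. With library size only as scaling these were TIMP2 (0.039), CST3 (0.023) and SERPINB6 (0.025). TIMP2 turned without CBX8 KO replicate 2 (0.0068, with -0.037 to 0.0068 over the omitted libraries). CST3 turned without CBX8 KO replicate 3 (0.052) or WT CBX8 re-expression replicate 2 (0.021, with -0.085 to 0.052). Library size scaling moved the median of all genes to 0.06.

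Target proteases and receptors depended more on the settings. Against 5 called lower, 3 were called with library size only, the replicate block or FDR < 0.01, 1 at 1.5-fold, and 3 to 4 with a library left out (3 without CBX8 KO replicate 2, WT CBX8 re-expression replicate 1 or 2). Against 13 called higher, 7 were called by DESeq2, 4 at 1.5-fold, and 7 to 12 with a library left out, with the lowest without WT CBX8 re-expression replicate 2. Of the other inhibitors, 0 lower and 1 higher were called in every leave-one-out fit, and 0 higher at 1.5-fold. Apart from the thresholds and from fits with fewer libraries, the cause was not tested. The numbers were not taken as pairs, since neither labels nor methods say that a number marks a shared batch. Same-numbered libraries of the conditions did not deviate together (correlations -0.144, -0.182 and -0.115 over 10353 genes). Low counts limit what can be said of 29 of the 49 genes.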

Other observations

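GDPD5, which starts at -36.1 kb from SERPINH1 (upstream), had a log2 fold change of 1.05 (SE 0.11), beside 0.24 for SERPINH1. The glial markers GFAP and OLIG2 were low. GFAP had 17, 14 and 13 counts in CBX8 KO and 26, 30 and 19 upon re-expression, and OLIG2 had 14, 14 and 15 against 26, 38 and 19. The groups did not overlap for either gene, and neither passed the threshold (edgeR adjusted p of 0.13 and 0.056).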
